A study of Mus musculus with 2 samples.

Results

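The genes described here are the cyclins, cyclin-dependent kinases (CDKs) and E2F-family factors that take a cell from G1 into S phase, together with close relatives and partners. They were chosen by gene symbol and not by a rule on their values, though earlier results of these data were known. The symbols were those of the A-, D-, E-, G- and H-type cyclins, the numbered CDKs from Cdk2 to Cdk20, and the E2f and Tfdp genes. To these were added Rbl1 and Rbl2, Cdc25a, 4 subunits of the MuvB complex, and Mybl1 and Mybl2. The choice took 46 of the 23361 genes that carry values in the deposited table. Cdk1, whose main role is in mitosis, is not among them. RNA-Seq was done on brown preadipocytes (D0) and on brown adipocytes 7 days later (D7), 1 library each. Both came from interscapular brown fat of newborn C57BL/6 mice (C57BL/6J in the methods of the study), with no genetic change named in the labels. The labels give a growth medium with 20% FBS, and for differentiation 10% FBS with insulin (0.1 μM) and T3 (1 nM). Indomethacin (0.125 mM), dexamethasone (2 μg/ml) and IBMX (0.5 mM) were added for the first 2 days. The methods of the study give other insulin, dexamethasone and serum concentrations, and describe preadipocytes immortalized with large T where the labels speak of primary cells. Large T is a viral protein known to bind the retinoblastoma family, so immortalized cells would be a limited model of the pathway these genes form. The account of the RNA-Seq in the study also speaks of primary cultures, so the sources do not settle whether the libraries came from immortalized cells.

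In G1, D-type cyclins activate CDK4 and CDK6, which phosphorylate the retinoblastoma protein and its relatives p107 and p130, known as the pocket proteins. Phosphorylation releases E2F factors, which with a DP partner switch on cyclin E, cyclin A and the genes of DNA replication. Cyclin E and cyclin A then activate CDK2, and the atypical factors E2F7 and E2F8 shut E2F targets down again. In cells at rest, p130 joins E2F4 and the MuvB core to hold the same genes silent. Preadipocytes divide in culture, and mature adipocytes are known as cells that have left the cycle. The methods of the study describe the preadipocytes as close to confluent when differentiation began, and the share of dividing cells at D0 is not given.

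The unit is FPKM, fragments per kb of transcript scaled to library size, as the authors deposited it. A gene was called higher or lower at D7 at a D7/D0 ratio of at least 2.0 or at most 0.5, and "rose" and "fell" are used only of such genes. With 1 library a stage there is no replicate check and no p-value. The intervals beside ratios are 95% intervals from recovered numbers of fragments, describe counting error alone, and set the 2 libraries, not the stages, against each other. The recovered depth was 21471567 fragments at D0 and 18265694 at D7. At that depth 7 members above 0 had under 100 fragments in each library, namely Ccne2, E2f2, E2f7, E2f8, Mybl1, Mybl2 and Cdk15.

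Among the members Cdk4, Ccna2, E2f7, E2f8, Mybl2 and Cdk17 fell, E2f2 and Lin52 rose, and 37 stayed within 2.0-fold. Of the 46 genes, 45 were above 0 in both libraries and 42 reached 1 FPKM in at least 1 of them. The 6 genes that fell are 13.3% of the 45, close to the 13.2% of all 14986 genes above 0 in both libraries that were lower. The 2 genes that rose are 4.44%, where 18.5% of all genes were higher. The 37 within 2.0-fold are 82.2% of the members, beside 68.3% of all genes. The median log2 ratio was -0.19 over the members and 0.02 over all genes. Ratios were below 1 in 32 members and above 1 in 13, beside 7401 and 7585 of all 14986 genes. In bulk RNA, fewer cells of a type and less RNA per cell cannot be told apart.

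**Figure D1:**
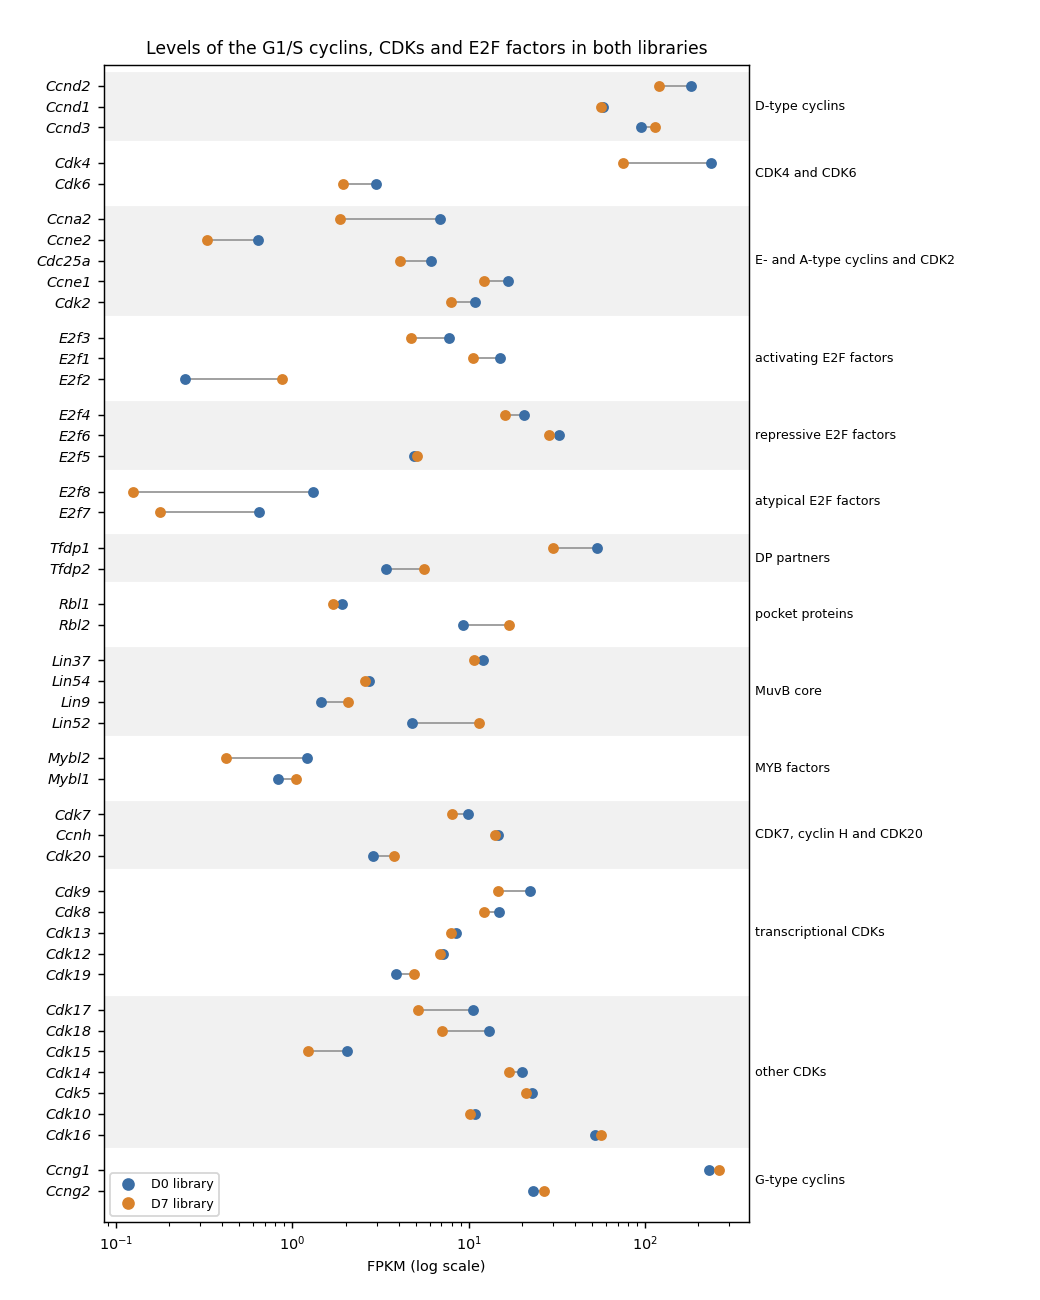
FPKM on a log scale of the 45 genes above 0 in both libraries, by role, with the D0 library in blue and the D7 library in orange. Most pairs of points lie close together, while Cdk4 moved from 236 to 75.3 and E2f8 from 1.30 to 0.125.

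Stricter readings left fewer genes. At 4.0-fold 1 member was lower, E2f8, and 0 were higher, against 3.86% and 8.08% of all genes. Among the 42 members that reached 1 FPKM, 5 were lower and 1 was higher, against 11.9% and 15.6% of all genes at that level. The whole interval lay below 0.5 in 4 members (Cdk4, Ccna2, E2f7 and E2f8) and above 2.0 in both E2f2 and Lin52, against 7.14% and 11.2% of the 14755 genes with a known length. The interval lay wholly below 1 in 23 members and wholly above 1 in 11, against 35.6% and 34.3% of those genes, and it included 1 in 11 members.

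The ratio also depends on the scale set between the libraries. When each library was scaled to the median of its own values (called median-scaled here), every log2 ratio shifted by -0.35. Then 11 members were lower and 1 was higher, against 21.7% and 13.4% of all genes. Median-scaled ratios were below 1 in 39 members, beside 9846 of all 14986 genes above 0 in both libraries. The median-scaled ratios of Ccnd3, E2f5, Mybl1, Cdk19, Cdk16, Ccng1 and Ccng2 turned from above 1 to below 1, so no direction is given for these 7 genes.

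**Figure D2:**
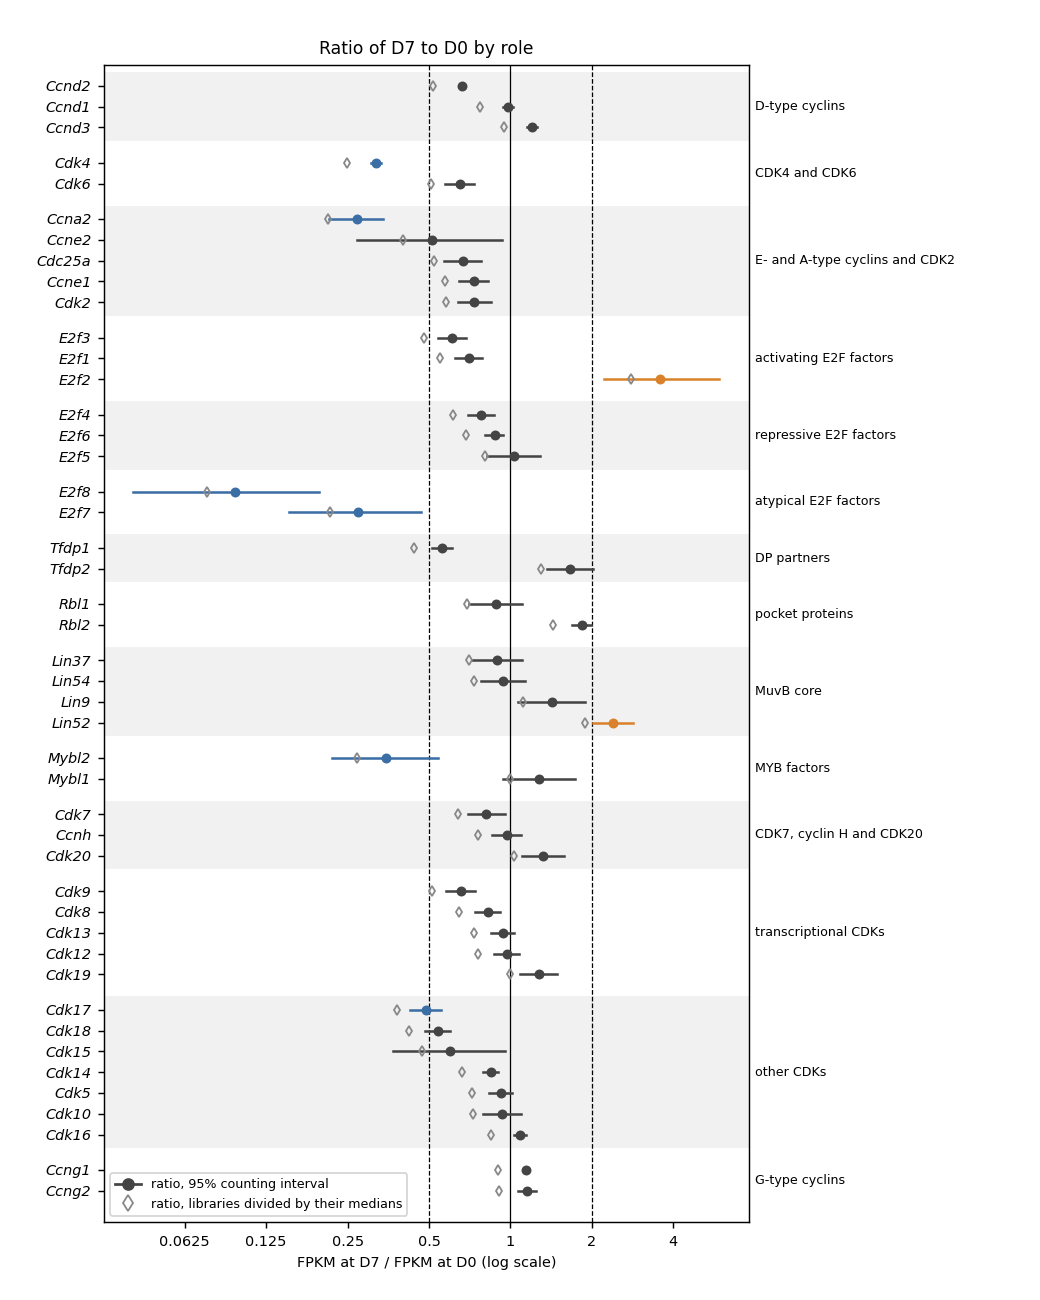
Ratio of FPKM at D7 to D0 on a log scale for the same 45 genes, with 95% counting intervals, called genes in blue (lower) and orange (higher), and open diamonds for median-scaled ratios. Dashed lines mark 0.5 and 2.0. E2f8 lies farthest to the left at 0.0960 and E2f2 farthest to the right at 3.58.

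The labelled cell types were checked against marker genes. Of 10 adipocyte markers, 8 were above 0 in both libraries and all 8 were higher at D7, among them Fabp4, a fatty acid binding protein (D0 20.3, D7 14391 FPKM), and Adipoq, which encodes adiponectin (D0 0.221, D7 943). Ucp1 and Cidea were listed at 0 at D0 and stood at 4.57 and 24.4 FPKM at D7. Of 12 macrophage markers 11 were higher at D7 and their summed FPKM was 162 and 617, with Lyz2 at 111 and 286. Endothelial markers summed to 1.69 and 2.65, with Cldn5 and Tie1 at 0 in both libraries. Skeletal muscle markers summed to 51.7 and 4.88, mostly Acta1 at D0, with Ckm, Myf5 and Myod1 at 0 in both. The part of the macrophage signal in the results below was not tested.

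The D-type cyclins, which respond to growth signals, remained abundant at D7. Ccnd2 (ENSMUSG00000000184.12, minus strand of chromosome 6, 127125162 to 127152193) stood at 183 FPKM in preadipocytes against 121 in adipocytes. All such positions are from GENCODE M21, mm10. The ratio of Ccnd2, 0.661 (interval 0.647 to 0.675), did not reach 0.5. Ccnd3 stood at 95.3 FPKM before differentiation and 115 after (ratio 1.20, interval 1.15 to 1.26), and its median-scaled ratio was 0.943. Ccnd1 was nearly level, at 57.7 FPKM before differentiation and 56.7 after (interval 0.939 to 1.03). Together the 3 cyclins made 336 and 292 FPKM. Because FPKM is a level per length, genes can be compared within a library. Ccnd2 held 54.4% of the sum at D0 and 41.3% at D7, and Ccnd3 28.4% and 39.3%. The level of Ccnd2 was thus 1.92 times that of Ccnd3 in preadipocytes and 1.05 times in adipocytes.

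Cdk4, the main kinase partner of the D-type cyclins, lost the most FPKM of all members. Cdk4 (ENSMUSG00000006728.12, plus strand of chromosome 10, 127063534 to 127067920) stood at 236 FPKM in preadipocytes against 75.3 in adipocytes. This ratio of 0.319 (interval 0.304 to 0.332) rests on about 9510 and 2574 fragments. Cdk4 was the most abundant of the 46 genes at D0 and stood at rank 4 at D7. Its level was 1.29 times that of Ccnd2 in preadipocytes and 0.623 times in adipocytes. Cdk6, the other kinase that D-type cyclins activate, was low at 2.99 FPKM before differentiation and 1.94 after (ratio 0.649, interval 0.573 to 0.734). Cdk4 made up 98.8% of the summed FPKM of this pair at D0 and 97.5% at D7. Exons of Cdk4 overlap those of Tspan31 on the opposite strand. The methods of the study name UNG treatment to remove the second cDNA strand from the libraries. Whether strand was then used in counting is not given in the sources used here. Tspan31 stood at 107 and 72.8 FPKM, a ratio of 0.681, and the share of its reads in the value of Cdk4 was not tested.

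**Figure D3:**
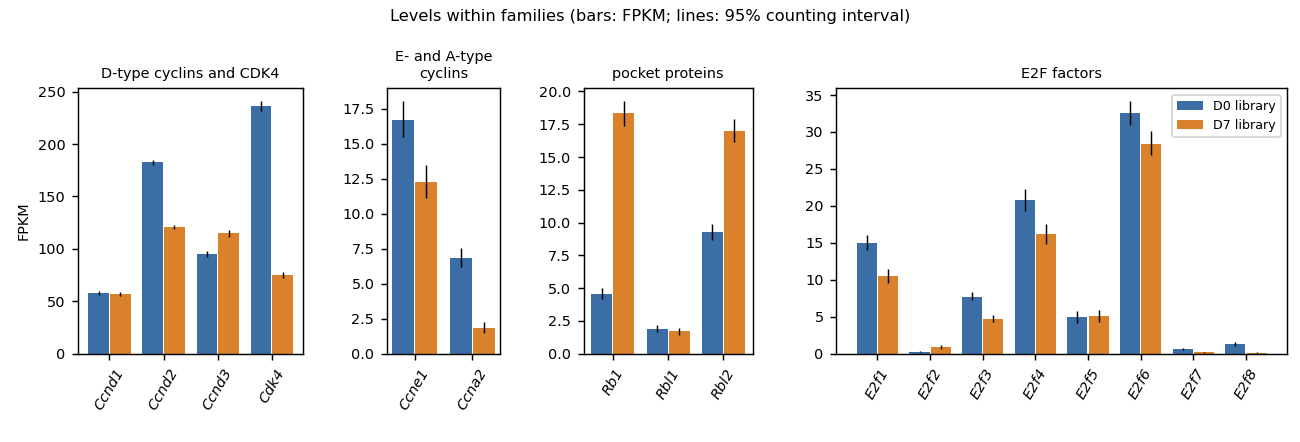
FPKM in the D0 library (blue) and the D7 library (orange) within families, with 95% counting intervals as thin lines and a separate linear axis from 0 in each panel. Cdk4 went from above every D-type cyclin to below Ccnd2 and Ccnd3, Ccna2 fell while Ccne1 stayed within 2.0-fold, and Rb1 stood 4.00 times higher at D7.

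Among the partners of CDK2, cyclin A2 parted from cyclin E1. Ccna2 (ENSMUSG00000027715.9, minus strand of chromosome 3, 36564865 to 36572150), whose protein acts in S phase and into mitosis, stood at 6.85 FPKM in preadipocytes against 1.85 in adipocytes. The ratio of Ccna2 was 0.271 (interval 0.213 to 0.338), on about 410 and 94 fragments. Exosc9 overlaps Ccna2 on the opposite strand and stood at 16.8 and 14.7 FPKM. Ccne1, whose protein starts S phase with CDK2, stood at 16.7 FPKM before differentiation and 12.3 after (ratio 0.733, interval 0.645 to 0.829). The level of Ccne1 was 2.44 times that of Ccna2 at D0 and 6.61 times at D7. Ccne2 lay just outside the threshold at 0.640 FPKM before differentiation and 0.328 after (ratio 0.513, interval 0.272 to 0.927), on about 39 and 17 fragments, with a median-scaled ratio of 0.402. Ints8 overlaps Ccne2 on the opposite strand at 11.8 and 9.75 FPKM, well above Ccne2. Ccna1, a cyclin of the germ line, was listed at 0 in both libraries, which allows up to 0.101 FPKM at D0 and 0.119 at D7.

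Cdk2 itself stood at 10.8 FPKM before differentiation and 7.97 after (ratio 0.735, interval 0.638 to 0.846). Its level was 0.648 times that of Ccne1 in preadipocytes and 0.651 times in adipocytes, a nearly equal proportion. Cdc25a, whose product removes inhibitory phosphate from CDK2, stood at 6.15 FPKM before differentiation and 4.10 after (ratio 0.667, interval 0.569 to 0.777). None of these 3 genes was called.

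Of the 8 E2F genes E2f7 and E2f8 fell, E2f2 rose, and the other 5 were not called. E2F1, E2F2 and E2F3 are the activators. E2f1 stood at 15.0 FPKM before differentiation and 10.5 after (ratio 0.701, interval 0.625 to 0.784). E2f3 stood at 7.73 FPKM before differentiation and 4.71 after (ratio 0.610, interval 0.541 to 0.686), and its median-scaled ratio of 0.478 was past the threshold. E2f2 (ENSMUSG00000018983.9, plus strand of chromosome 4, 136172394 to 136196057) rose, at 0.245 FPKM in preadipocytes against 0.877 in adipocytes. Its ratio of 3.58 (interval 2.23 to 5.93) rests on about 24 and 73 fragments, and was 2.80 when median-scaled. With a pseudocount of 1 FPKM it was 1.51 and no longer past 2.0. E2f2 stayed far below E2f1, whose level was 61.2 times that of E2f2 at D0 and 12 times at D7.

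E2F4 and E2F5 work with p107 and p130 as repressors, and E2F6 represses without pocket proteins. E2f6 was the most abundant E2F gene in both libraries, at 32.5 FPKM in preadipocytes against 28.4 in adipocytes (ratio 0.874, interval 0.808 to 0.942). E2f4 stood at 20.7 FPKM before differentiation and 16.2 after (ratio 0.780, interval 0.696 to 0.869), and E2f5 at 4.92 FPKM before differentiation and 5.07 after (ratio 1.03, interval 0.820 to 1.29). None of these repressor genes was called. Exons of E2f5 overlap those of 1810022K09Rik on the opposite strand, which stood far higher, at 102 and 114 FPKM, and the share of its reads in the value of E2f5 was not tested. E2f6 and E2f4 held 39.1% and 24.96% of the summed FPKM of the 8 E2F genes at D0, and 43.0% and 24.5% at D7.

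The atypical factors E2F7 and E2F8 bind DNA without a DP partner, and both of their genes fell. E2f8 (ENSMUSG00000046179.17, minus strand of chromosome 7, 48866429 to 48881596) stood at 1.30 FPKM in preadipocytes against 0.125 in adipocytes. Its ratio of 0.0960 (interval 0.0403 to 0.197) was the lowest of all members without a pseudocount, a 10.4-fold lower value, on about 98 and 8 fragments. With a pseudocount of 1 FPKM the ratio was 0.489, above those of Cdk4 (0.321) and Ccna2 (0.364). Without one, of all genes above 0 in both libraries, 0.567% had a ratio as low or lower. E2f7 (ENSMUSG00000020185.16, plus strand of chromosome 10, 110745439 to 110787384) stood at 0.642 FPKM in preadipocytes against 0.176 in adipocytes (ratio 0.274, interval 0.151 to 0.469), on about 73 and 17 fragments, and came to 0.716 with that pseudocount, which loses the call. The level of E2f1 was 11.5 times that of E2f8 in preadipocytes and 84.3 times in adipocytes. The atypical genes thus parted from the activator E2f1 and from E2f4, which was 16.0 times E2f8 at D0 and 129.6 times at D7.

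Activating and repressive E2F factors need a DP partner to bind DNA. Tfdp1 stood at 53.6 FPKM in preadipocytes against 30.0 in adipocytes (ratio 0.560, interval 0.514 to 0.608), with a median-scaled ratio of 0.439. Tfdp2 stood at 3.37 FPKM before differentiation and 5.59 after (ratio 1.66, interval 1.36 to 2.02), with a median-scaled ratio of 1.30. Tfdp1 remained the main partner, at 15.9 times the level of Tfdp2 at D0 and 5.37 times at D7.

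Among the pocket proteins, p130, encoded by Rbl2, is typical of cells at rest and p107, encoded by Rbl1, of dividing cells. Rbl2 (ENSMUSG00000031666.15, plus strand of chromosome 8, 91070057 to 91123844) stood at 9.29 FPKM in preadipocytes against 17.0 in adipocytes. Its ratio of 1.83 (interval 1.69 to 1.99) stayed under 2.0, and was 1.44 when median-scaled. Aktip overlaps Rbl2 on the opposite strand and stood at 15.5 and 19.1 FPKM. Rbl1 stood at 1.91 FPKM before differentiation and 1.69 after (ratio 0.882, interval 0.705 to 1.10). The level of Rbl2 was 4.85 times that of Rbl1 in preadipocytes and 10.1 times in adipocytes. Rb1, which encodes the retinoblastoma protein and is no member of the list, rose, at 4.58 FPKM in preadipocytes against 18.3 in adipocytes (ratio 4.00, interval 3.59 to 4.46). The level of Rbl2 was 2.03 times that of Rb1 at D0 and 0.929 times at D7. Summed, the 3 pocket protein genes made 15.8 and 37.03 FPKM.

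The MuvB core joins p130 and E2F4 to repress genes in cells at rest, and joins B-MYB, encoded by Mybl2, to switch on genes of mitosis. Lin52 (ENSMUSG00000085793.2, plus strand of chromosome 12, 84451422 to 84546145), the subunit that docks to p130, rose, at 4.74 FPKM in preadipocytes against 11.4 in adipocytes. Its ratio of 2.40 (interval 2.03 to 2.84) became 1.88 when median-scaled, which is no longer past 2.0. Lin9 stood at 1.45 FPKM before differentiation and 2.06 after (ratio 1.42, interval 1.07 to 1.88). Lin37, at 12 FPKM before differentiation and 10.7 after, and Lin54, the DNA-binding subunit, at 2.73 FPKM before differentiation and 2.57 after, had intervals that included 1 (0.721 to 1.10 and 0.779 to 1.13). Hspb6 overlaps Lin37 on the opposite strand and stood higher, at 25.2 and 26.1 FPKM. The share of its reads in the value of Lin37 was not tested. Rbbp4, the fifth subunit and no member of the list, had a ratio of 0.776.

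Mybl2 (ENSMUSG00000017861.11, plus strand of chromosome 2, 163054687 to 163084688) fell, at 1.22 FPKM in preadipocytes against 0.420 in adipocytes. Its ratio was 0.345 (interval 0.218 to 0.541), on about 91 and 27 fragments, and 0.641 with a pseudocount of 1 FPKM, which loses the call. Mybl1, which encodes the related A-MYB, stood at 0.826 FPKM before differentiation and 1.05 after (ratio 1.27, interval 0.937 to 1.73). The level of Mybl1 was 0.680 times that of Mybl2 at D0 and 2.51 times at D7, so the order of the 2 genes turned.

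Genes that E2F and MuvB complexes are known to control were counted beside their regulators, with both lists written after earlier results of these data were known. Of 37 target genes of G1 and S phase, 23 fell (62.2%, beside 13.2% of all genes) and none rose (18.5% of all genes). Their median log2 ratio was -1.19. Tk1, the thymidine kinase of dividing cells, had the lowest ratio (D0 10.2, D7 1.52 FPKM, ratio 0.149, interval 0.101 to 0.212). Cdc45, a partner of the replicative helicase, had the highest (D0 3.13, D7 4.63, ratio 1.48, interval 1.17 to 1.87). Mcm2, a helicase subunit, fell from 9.95 to 3.07, while Pcna, the sliding clamp, stood at 50.02 and 33.3.

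Of 32 target genes of G2 and mitosis, 31 fell (96.9%, beside 13.2% of all genes) and none rose (18.5% of all genes). Their median log2 ratio was -2.43. Ccnb2, a cyclin of mitosis, had the lowest ratio (D0 9.16, D7 0.967 FPKM, ratio 0.106, interval 0.0668 to 0.161). Ccnb1 fell from 10.9 to 1.82, and Cdk1, the kinase of both, from 12.99 to 4.64. Cdc25b, with a ratio of 0.752, was the only gene of this list that was not called. The median log2 ratio of the members was -0.19, and that of all genes 0.02.

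**Figure D4:**
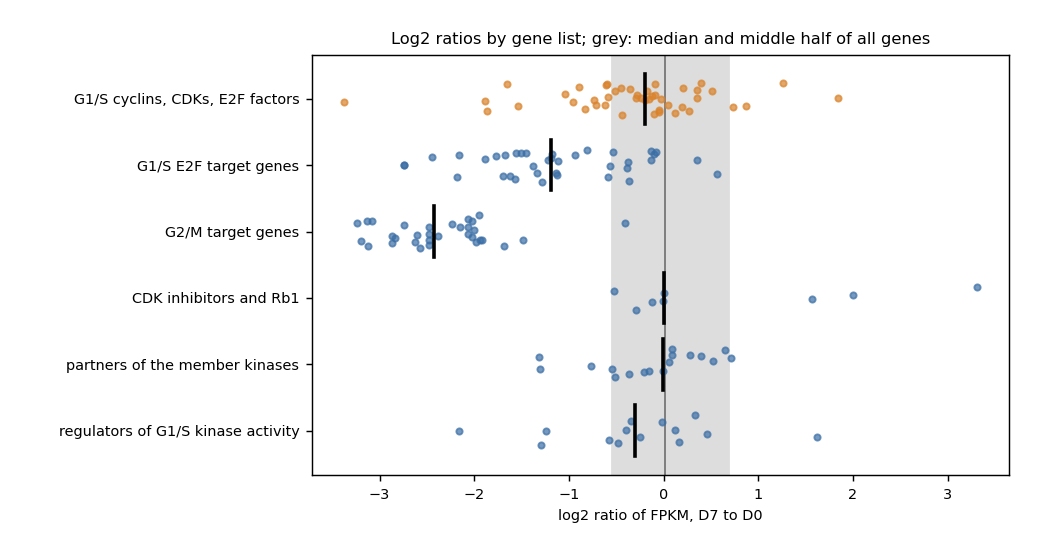
Log2 ratio of FPKM, D7 to D0, for each gene above 0 in both libraries, by list, with black bars for list medians and grey for the median and the range from the 25th to the 75th percentile of all genes. The 45 cyclins, CDKs and E2F factors centre at -0.19, the G1/S target genes at -1.19 and the G2/M target genes at -2.43.

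Promoter sequence was read because E2F and MuvB bind known elements. RefSeq windows on GRCm38.p6, from 250 bases before to 50 after the start, were found for 34 of the 46 genes. They were searched on both strands for the E2F element, written as TTTCCCGC, TTTGGCGC, TTTCGCGC or TTTGCCGC, and for TTTGAA, the CHR element that MuvB binds. An E2F element stood in 8 of the 34 genes, or 23.5%, in 2.60% of the 27025 genes with a window, and in 4.42% of those above 0 in both libraries. Median GC content was 64.7% in the members' windows, 52.7% in all windows and 60.3% in those of genes above 0 in both libraries. All 8 genes are shown because they include regulators that fell (E2f7), rose (E2f2 and Lin52) and stayed within 2.0-fold. Capitals mark the element or its reverse complement, and each sequence is on the strand of its gene.
Cdc25a, chr9:109875486-109875545, plus strand, element 67 bases before the start: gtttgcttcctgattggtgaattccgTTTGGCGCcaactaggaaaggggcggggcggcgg
Cdk2, chr10:128705158-128705217, minus strand, element 140 bases before the start: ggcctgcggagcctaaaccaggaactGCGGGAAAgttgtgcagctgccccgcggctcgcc
E2f2, chr4:136172302-136172323, plus strand, element 39 bases after the start: gcggcatatagTTTGGCGCtaa
E2f3, chr13:29986056-29986085, minus strand, element 11 bases before the start: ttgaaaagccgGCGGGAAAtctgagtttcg
E2f7, chr10:110745215-110745274, plus strand, element 198 bases before the start: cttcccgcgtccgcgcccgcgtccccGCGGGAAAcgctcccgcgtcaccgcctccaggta
Lin52, chr12:84451470-84451499, plus strand, element 27 bases before the start: cggatcctcgcTTTCCCGCcgacggttggt
Rbl1, chr2:157204535-157204594, minus strand, element 18 bases before the start: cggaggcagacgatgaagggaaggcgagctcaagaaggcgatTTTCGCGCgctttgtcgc
Tfdp1, chr8:13338682-13338741, plus strand, element 43 bases before the start: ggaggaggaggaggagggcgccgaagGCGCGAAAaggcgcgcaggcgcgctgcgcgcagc

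Ratios of these 8 genes ran from 0.274 (E2f7) to 3.58 (E2f2), above 1 in E2f2 and Lin52 and below 1 in the others. Whether the element goes with a direction was not tested. In the G1/S target genes it stood in 12 of 32 genes, or 37.5%. The CHR element stood in 7 of the 34 member genes, or 20.6%, against 20.2% of all genes with a window and 14.2% of those above 0 in both libraries. It stood in 21 of 28 G2/M target genes, or 75%. The 7 member genes were Cdk16, E2f2, E2f3, E2f8, Lin37, Lin54 and Rbl2. Of these E2f8 fell, E2f2 rose and 5 stayed within 2.0-fold, and whether the CHR element goes with a direction was not tested. E2f8 is shown beside Ccnb2 and Cdk1 of the G2/M list, with TTTGAA or its reverse complement in capitals.
E2f8, chr7:48881597-48881656, minus strand, element 20 bases before the start: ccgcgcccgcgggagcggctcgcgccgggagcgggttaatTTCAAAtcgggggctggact
Ccnb2, chr9:70421690-70421749, minus strand, element 167 bases before the start: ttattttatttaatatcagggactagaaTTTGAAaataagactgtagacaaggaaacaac
Cdk1, chr10:69352952-69353011, minus strand, element 71 bases before the start: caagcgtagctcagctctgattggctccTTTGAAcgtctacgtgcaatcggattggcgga

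For Ccnb2 and Cdk1 the window held 2 CHR matches each, and only the match farther upstream is shown. A match describes the letters in the window and shows neither binding nor a cause. Windows of Cdk4 and Mybl2 held neither element, and the table held no window for Ccna2 and Cdk17. Only exact letters in these windows were searched, so the lack of a match does not show that a gene lacks a site.

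**Figure D5:**
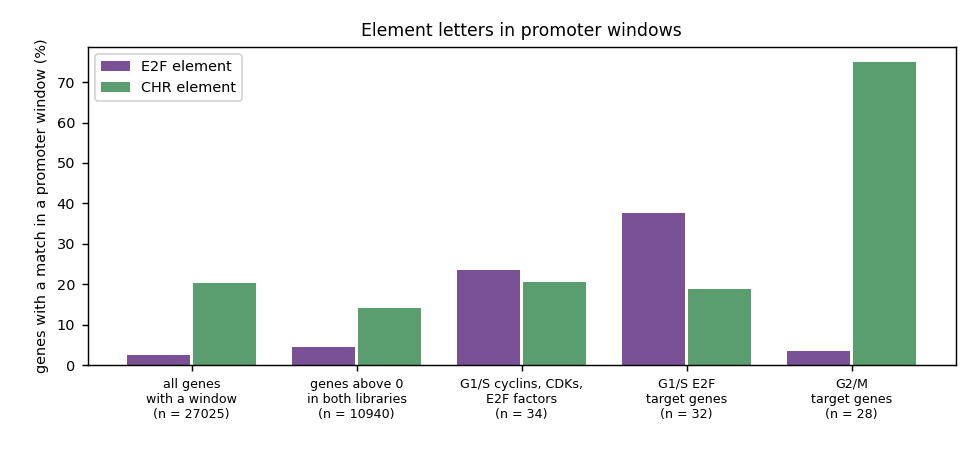
Percentage of genes with at least 1 E2F element (purple) or CHR element (green) in a promoter window, for all genes with a window, genes above 0 in both libraries, the member genes and both target lists, with the number of genes under each pair of bars. The members stand at 23.5% for the E2F element, and the G2/M target genes at 75% for the CHR element.

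CDK inhibitors act against kinases of the list, while Rb1 encodes a protein that CDK4 and CDK6 phosphorylate. Of these 8 genes, Rb1 included, 3 rose (37.5%, beside 18.5% of all genes) and none fell (13.2% of all genes). The median log2 ratio of the 8 was -0.00. Cdkn2c, which encodes the CDK4 and CDK6 inhibitor p18, rose most, at 8.34 FPKM in preadipocytes against 82.7 in adipocytes (ratio 9.92, interval 8.41 to 11.7). Its level was far below that of Cdk4 at D0 and close to it at D7 (82.7 and 75.3 FPKM). Cdkn1c, which encodes p57, rose from 20.4 to 60.7, and Rb1 was the third. Cdkn1a, which encodes the p53 target p21, was the most abundant inhibitor gene in both libraries (D0 464, D7 322, ratio 0.695). Cdkn1b, which encodes p27, had a ratio of 0.815. The Ink4 genes Cdkn2a, Cdkn2b and Cdkn2d had ratios of 1.00, 0.915 and 0.995.

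Of 14 regulators of G1/S kinase activity, 3 fell and 1 rose (21.4% and 7.14%, beside 13.2% and 18.5% of all genes), with a median log2 ratio of -0.30. Skp2, the ubiquitin ligase subunit that destroys p27, had the lowest ratio (D0 5.21, D7 1.16 FPKM, ratio 0.223, interval 0.182 to 0.269). Fbxo31, a ligase subunit for cyclin D1, had the highest (D0 3.58, D7 11.02, ratio 3.08, interval 2.70 to 3.51). Of 18 partners of the member kinases, 2 fell, none rose, 15 lay within 2.0-fold, and Cdk5r2 was listed at 0 at D7. The 2 that fell are 11.8% of the 17 with a ratio, close to the 13.2% of all genes, and the median log2 ratio was -0.01. Ccnyl1, a relative of cyclin Y, had the lowest ratio, 0.402, close to that of Cks2, an adaptor of CDK1 and CDK2, at 0.404. Ccnl2, a cyclin linked to splicing, had the highest ratio, 1.63.

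The remaining members have roles outside the step from G1 to S, and only Cdk17 among them was called. Their ratios ran from 0.487 (Cdk17) to 1.32 (Cdk20). CDK7 with cyclin H forms the CDK-activating kinase, which also phosphorylates RNA polymerase II. Cdk7 stood at 9.92 FPKM before differentiation and 8.08 after (ratio 0.815, interval 0.695 to 0.955), and Ccnh at 14.6 FPKM before differentiation and 14.1 after (ratio 0.968, interval 0.855 to 1.09). Mnat1, their assembly factor and no member of the list, had a ratio of 0.700. Cdk20, a kinase related to CDK7, stood at 2.85 FPKM before differentiation and 3.76 after (ratio 1.32, interval 1.10 to 1.57).

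The 5 kinases of transcription, Cdk8, Cdk9, Cdk12, Cdk13 and Cdk19, had ratios between 0.655 and 1.27. Cdk9, the kinase of the elongation factor P-TEFb, had the lowest, at 22.4 FPKM before differentiation and 14.7 after (ratio 0.655, interval 0.579 to 0.738), and its cyclin gene Ccnt1 had a ratio of 1.04. The Mediator kinase gene Cdk8 stood at 14.9 FPKM before differentiation and 12.3 after, and its close relative Cdk19 at 3.86 FPKM before differentiation and 4.91 after. The level of Cdk8 was 3.87 times that of Cdk19 at D0 and 2.50 times at D7, and the ratio of their cyclin gene Ccnc was 0.993. Cdk12 and Cdk13, which act on elongating polymerase with cyclin K, had intervals that included 1 (0.868 to 1.08 and 0.848 to 1.03). Their levels were 7.12 and 8.42 FPKM in preadipocytes, and 6.89 and 7.89 in adipocytes. Ccnk, which encodes cyclin K, had a ratio of 0.895.

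Among the 7 other CDK genes, Cdk17 and Cdk18 lay on either side of the threshold. With Cdk16 they encode the PCTAIRE kinases. Cdk17 (ENSMUSG00000020015.10, plus strand of chromosome 10, 93160875 to 93267071) stood at 10.5 FPKM in preadipocytes against 5.12 in adipocytes (ratio 0.487, interval 0.425 to 0.554). Cdk18 stood at 13.04 FPKM before differentiation and 7.02 after (ratio 0.538, interval 0.484 to 0.596), with a median-scaled ratio of 0.421. Both intervals include 0.5. Cdk16 was the most abundant of the 3, at 52.3 FPKM before differentiation and 56.6 after. Cdk5, best known from neurons, stood at 22.9 FPKM before differentiation and 21.0 after, and Cdk14, whose product pairs with cyclin Y at the membrane, at 20.0 FPKM before differentiation and 17.0 after. Cdk10 stood at 10.9 FPKM before differentiation and 10.1 after. Cdk15, on about 57 and 29 fragments, stood at 2.05 FPKM before differentiation and 1.23 after, with a ratio of 0.599 and a median-scaled ratio of 0.470.

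The G-type cyclins are linked to cell cycle arrest, and Ccng1 is a known target of p53. Ccng1 stood at 232 FPKM in preadipocytes against 266 in adipocytes (ratio 1.15, interval 1.12 to 1.17), rank 2 of the members at D0 and rank 1 at D7. Ccng2 stood at 23.2 FPKM before differentiation and 26.8 after (ratio 1.15, interval 1.07 to 1.25). Neither was called, and their median-scaled ratios were 0.898 and 0.904.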

How the data were processed

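Gene expression in brown fat cells before and after differentiation was read from 1 table of RNA-Seq values, with 1 library per stage. Per the methods of the study, the authors removed low quality, adaptor, duplicate and rRNA reads, aligned the others with SOAP2 to mm10 and gene sequences, and deposited FPKM values by gene. The processing notes of the submitters name Bowtie2 instead. GeneSpring is named in the methods, either for FPKM or only for calling changed genes, and several newborn mice were used. Whether their cells were pooled in a library is not given in the sources used here.

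Of 27324 rows, 23361 held values. Genes above 0 in both libraries were given a ratio of D7 to D0, with no pseudocount or rescaling, and the threshold of the study, 2.0-fold, was used. Fragment numbers were recovered with 653 genes of 1 exon (at least 600 bp, ends within 500 bp of the annotation). Subtracting 179 bp (D0) and 182 bp (D7) from their lengths made 100% of 94 and 100 values of up to 20 fragments whole within 0.1. Other genes took the length of the named or longest coding GENCODE M21 transcript, which makes their fragment numbers approximate. Ratios have exact Clopper-Pearson and levels exact Poisson intervals at 95%, and a value of 0 has a limit of 3 fragments. Exons of 16 members overlap another annotated gene, 1 of them on the same strand.

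The members, gene lists, alternatives and naming rule were chosen with earlier results of these data known. Named were all members, known partners, CDK inhibitors, the highest and lowest ratio of each pathway list at 1 FPKM or more in a library, and markers as checks. Mcm2, Pcna, Cks2, Cdk5r2, Tspan31, Exosc9, Aktip, Ints8, 1810022K09Rik, Hspb6 and the marker genes listed at 0 were named after their values were seen. The alternatives were pseudocounts of 0.1 and 1, filters at 0.1 and 1 FPKM, TPM, centring by the median ratio, the upper quartile, library medians with values under 0.01 set to 0.01, and a 4.0-fold threshold. The scripts were tested on simulated data. Software was Python 3.11.15 with numpy (2.4.6), scipy (1.17.1), pandas (2.3.3) and matplotlib (3.10.9).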

Additional observations from a re-analysis of the deposited data

How the results depend on the processing

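No paired analysis was possible because each stage has 1 library. The counts of 6 lower and 2 higher members were the same with a pseudocount of 0.1, a filter at 0.1 FPKM, TPM, centring by the median ratio and upper quartile scaling. Of all genes, 11% (pseudocount of 0.1) to 13.8% (TPM) were lower in these settings. The share higher ran from 15% (pseudocount of 0.1) to 18.4% (upper quartile). With a pseudocount of 1 the counts were 3 lower and 1 higher, against 6.73% and 9.71% of all genes, since Mybl2, E2f7, Cdk17 and E2f2 came within 2.0-fold. A filter at 1 FPKM removed E2f7 and E2f2 and left 5 lower and 1 higher. At 4.0-fold 1 member was lower and 0 were higher. Median-scaled, 11 were lower, with Ccne2, E2f3, Tfdp1, Cdk15 and Cdk18 added, and 1 was higher. That scaling moved the median log2 ratio to -0.55 for the members, -1.54 for G1/S targets, -2.78 for G2/M targets, -0.35 for CDK inhibitors and Rb1, -0.36 for partners and -0.65 for regulators. A pseudocount of 1 moved the G1/S median to -0.85 and the G2/M median to -1.55, and one of 0.1 moved the latter to -2.08. With at least 10 fragments in a library, a setting chosen after seeing the data, the counts were 6 and 2, against 13.1% and 17.4% of all genes. The direction of the called members was the same under each of these settings that gave a value, with none for E2f2 and E2f7 under the filter at 1 FPKM. Depth limits E2f8 most, at about 8 fragments at D7, and no value has a replicate.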

Other observations

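Other cyclin and CDK genes, outside the list above, were looked at after the other values had been seen. Of 11 such genes, 10 were above 0 in both libraries, with a median log2 ratio of 0.13 over the 10. Cdkl1 and Ccnjl were lower at D7 (20% of the 10, beside 13.2% of all genes). Cdkl2 was higher (10% of the 10, beside 18.5% of all genes). Ccni, an abundant cyclin gene, lay just under the threshold, with a ratio of 1.97 (95% counting interval 1.88 to 2.06) and a median-scaled ratio of 1.54. Cdkl2 stood at 1.59 FPKM in preadipocytes against 3.89 in adipocytes, and Cdkl1 at 2.41 FPKM in preadipocytes against 0.981 in adipocytes. Ccnjl rests on about 10 fragments at D0 and 1 at D7, with an interval of the ratio from 0.00271 to 0.826. Cdk11b, a kinase of transcription and splicing, stood at 29.8 FPKM before differentiation and 21.6 after.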
